A study of Mus musculus with 4 samples.

Results

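The genes described here are feedback genes of the ERK pathway: the Sprouty genes Spry1, Spry2 and Spry4, the Sprouty-related gene Spred1, the dual-specificity phosphatase genes Dusp4, Dusp5 and Dusp6, and the transcription factor genes Etv4 and Etv5. They were chosen by name, as the probe sets whose single annotated gene symbol was one of these 9. Of these, 7 genes had such a probe set, with 12 probe sets in all out of 20380 with a single symbol. No probe set of Dusp4 or Dusp5 was analysed here.

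Receptor tyrosine kinases, among them the receptors for fibroblast growth factors (FGF) and epidermal growth factor, act through RAS, RAF and MEK on the kinase ERK. ERK activity induces genes that in turn restrain the pathway: Sprouty and Spred proteins act upstream, at the level of receptors, RAS and RAF, and DUSP phosphatases remove the activating phosphates from ERK itself. Etv4 and Etv5 encode ETS factors of the PEA3 group, which are induced by FGF signalling in many tissues and are often read as outputs of the pathway. In the hair follicle, FGF signals take part in the switch of bulge stem cells between rest and growth.

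Hair follicle stem cells were sorted from dorsal skin of females aged about 60 postnatal days, of mixed CD1/C57BL/6 background, and RNA from them formed 2 groups of 2 arrays: conditional knockouts of the T-box transcription factor gene Tbx1 (cKO) and wild type mice (WT). Each cKO array shared a set number with a WT array. Per the labels every mouse was depilated with wax 48 h before the skin was taken, yet both samples of set 2 are also described as activated and both of set 1 as quiescent, so sets are named here by number. The labels name yellow fluorescent protein, integrin α6 and CD34 as sorting markers, and they do not give the Cre driver, the number of mice behind an array or whether both arrays of a genotype stem from different mice. The p-values therefore measure only how far these samples spread, and that spread may be technical.

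Values are log2 of the deposited intensity, and array medians lay between 6.36 and 6.38. Tbx1 read 9.54 and 8.88 on the cKO arrays of set 1 and set 2, against 10.53 and 10.37 on the WT arrays, a difference of -1.24 (SE 0.26) that did not pass limma's test (adjusted p = 0.274). The labels do not give the deleted part of Tbx1, so whether its probe set lies in it is not known. All 8 bulge and basal keratinocyte markers lay above the limit for dim probe sets (log2 5.40, percentile 40 of all probe sets) on every array. All 10 endothelial markers lay below it on both cKO arrays, while 3 and 4 of the 10 did so on the WT arrays. Their summed linear intensity was 176.1 and 189.4 in cKO against 2550 and 2445 in WT. Of 8 fibroblast markers 3 were higher and 3 lower in cKO within both sets. Their sums, 465 and 390.4 in cKO against 804 and 811 in WT, differed mainly through Vim, at 7.24 and 6.66 in cKO against 8.93 and 8.80 in WT. Of 8 immune markers 5 were higher and 1 was lower within both sets. Their sums, 367 and 292 in cKO against 506 and 381 in WT, were lower through the single gene Srgn, at 4.78 and 4.62 in cKO against 7.55 and 7.42 in WT. Of 5 melanocyte markers 3 were higher and 0 lower, with sums of 368 and 378 in cKO against 257 and 346 in WT. The cKO set 1 array stood apart in a labelling control, with a 3′ minus 5′ difference of 2.95 for the Dap transcript against 1.74 to 1.82 elsewhere. The WT set 2 array stood apart in the nuclear RNA Malat1, at 12.35 against 9.80 to 10.56 elsewhere. Another nuclear RNA, Neat1, set it less apart, at 9.08 against 7.46 to 8.51 elsewhere. The WT set 2 array also stood apart in its suprabasal keratinocyte markers, which summed to 6920 against 20283 to 24929 elsewhere. Of 5 suprabasal markers 4 were higher in cKO within both sets and 0 lower, with sums in set 1 of 22191 in cKO and 20283 in WT.

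Setting cKO beside WT asks whether ERK feedback genes differ between stem cells sorted from Tbx1 cKO and WT mice. Spry1 was 2.30-fold higher in cKO on average, 2.36-fold in set 1 and 2.24-fold in set 2. No other probe set of these genes differed by as much as 1.5-fold within either set, and the widest such difference outside Spry1 was 1.42-fold. Over all named probe sets, 3803 of 20380 differed by at least 1.5-fold in at least 1 set. Neither Spry1 nor any other of them passed limma's test over all probe sets, so no member can be called higher or lower in cKO by that test.

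Spry1 encodes a Sprouty protein that restrains signalling from FGF and other receptors to ERK. Its single probe set, 1415874_at, read 8.83 and 7.91 on the cKO arrays of set 1 and set 2, against 7.59 and 6.75 on the WT arrays. Both cKO arrays lay above both WT arrays, but the cKO set 2 array was closer to the WT set 1 array than to its own group partner. Mean levels were 8.37 ± 0.65 in cKO and 7.17 ± 0.59 in WT (SD, n = 2 each).

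The Spry1 difference of 1.20 (SE 0.41) had an unadjusted p of 0.0292 and an adjusted p of 0.386 in limma. With the set as a block, which removes the shared shift between sets, the SE was 0.18 and limma's adjusted p was 0.0556, still above the threshold of 0.05. The 2 arrays that stood apart carry the extremes of Spry1: the cKO set 1 array the highest value and the WT set 2 array the lowest. Between the other arrays, cKO set 2 and WT set 1, the difference was 0.32. That value was chosen after seeing the data, and it mixes genotype with set. Leaving out cKO of set 1 gave 0.74 and leaving out cKO of set 2 gave 1.66. Leaving out WT of set 1 gave 1.62 and leaving out WT of set 2 gave 0.78. What part these array differences have in the Spry1 value was not tested.

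Spry1 also differed between the sets. Set 2 lay below set 1 by 0.92 in cKO and by 0.84 in WT, levels that were 0.53 and 0.56 of those in set 1. The set difference of -0.88 (SE 0.55) did not pass limma's test (adjusted p = 0.999, and 0.202 with the genotype as a block). Spry1 was the only member at least 1.5-fold lower in set 2 within both genotypes, as were 0.427% of all named probe sets. All 10 endothelial markers were lower in cKO within both sets, and 4 of 5 suprabasal keratinocyte markers were higher. Fibroblast and immune markers did not share a direction, and the part of other cell types in the Spry1 values was not tested. In bulk RNA, fewer cells of a type and less RNA per cell cannot be told apart.

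**Figure D1:**
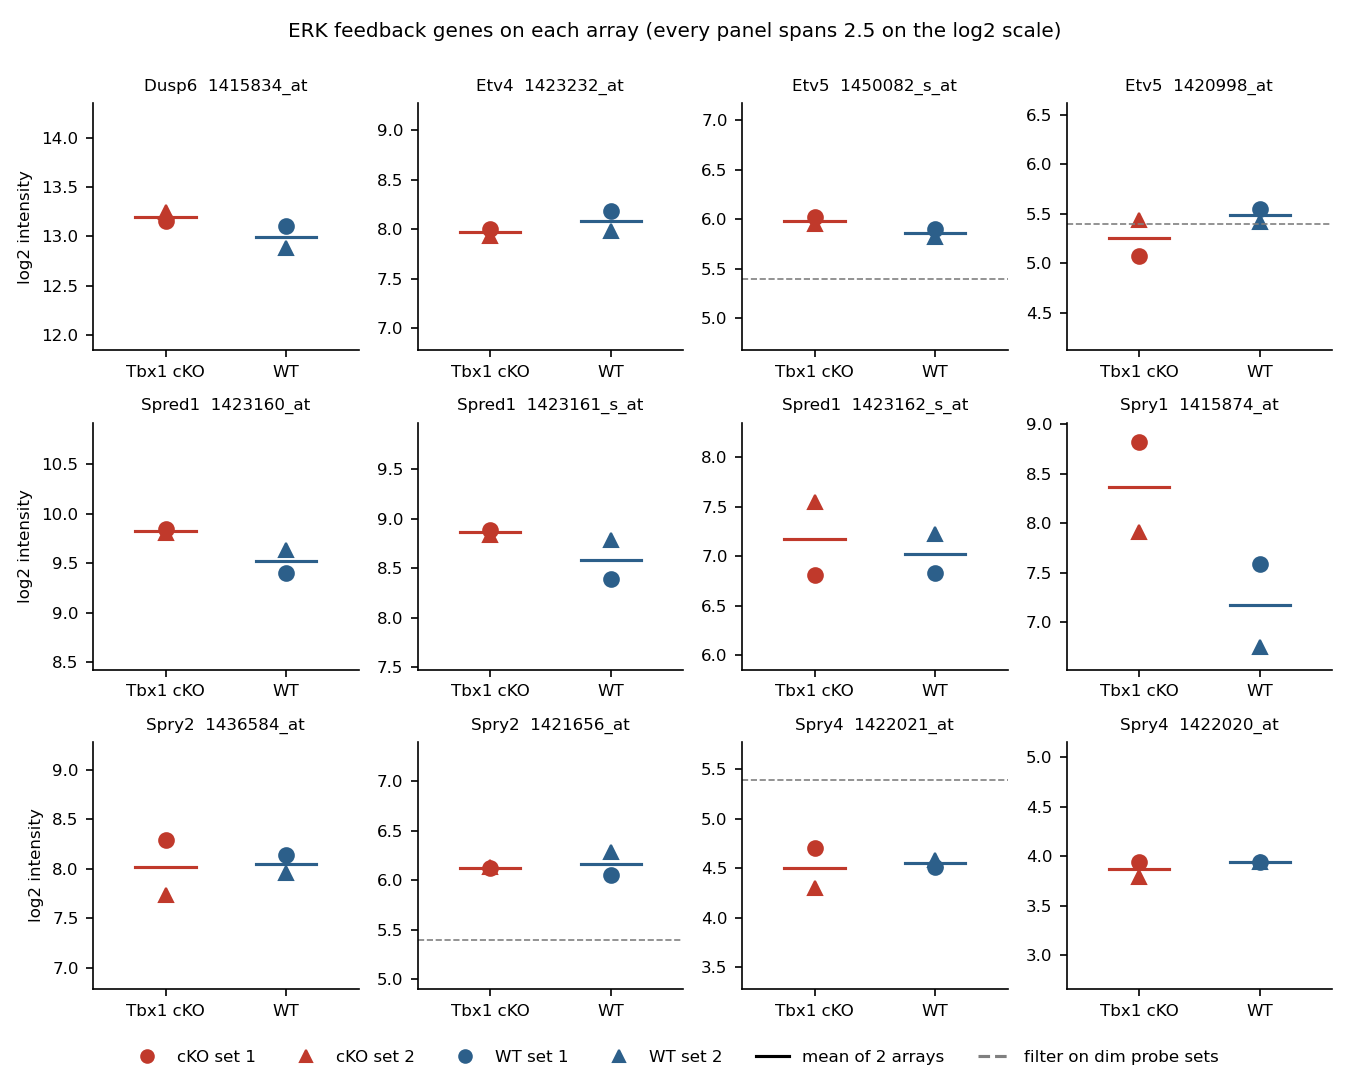
Log2 intensity of the 12 probe sets of ERK feedback genes on each array, cKO left of WT in every panel, with circles for set 1, triangles for set 2, bars for the mean of 2 arrays and a dashed line at the limit for dim probe sets where it falls in the panel. In the Spry1 panel both cKO points (8.83 and 7.91) lie above both WT points (7.59 and 6.75) and set 2 lies below set 1 in each genotype, while no other panel spans more than 0.73.

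The promoter of Spry1 is shown because Spry1 was the member with the widest difference, and that of Dusp6 because it was the phosphatase gene measured here and differed little. RefSeq promoter entries on GRCm38.p6 were found for 5 of the 7 genes. Each sequence is the 250 bases before the gene start on the + strand, 5′ to 3′, and capitals mark the core GGAA of ETS factors such as Etv4 and Etv5, read on both strands (TTCC on the other). Spry1 spans chr3:37639697-37639946 and Dusp6 spans chr10:99262981-99263230.
Spry1: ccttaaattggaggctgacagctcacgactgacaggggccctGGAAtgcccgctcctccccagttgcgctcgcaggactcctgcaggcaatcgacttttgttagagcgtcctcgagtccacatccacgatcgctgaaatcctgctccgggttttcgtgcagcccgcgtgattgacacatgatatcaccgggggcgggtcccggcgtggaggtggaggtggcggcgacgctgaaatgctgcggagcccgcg
Dusp6: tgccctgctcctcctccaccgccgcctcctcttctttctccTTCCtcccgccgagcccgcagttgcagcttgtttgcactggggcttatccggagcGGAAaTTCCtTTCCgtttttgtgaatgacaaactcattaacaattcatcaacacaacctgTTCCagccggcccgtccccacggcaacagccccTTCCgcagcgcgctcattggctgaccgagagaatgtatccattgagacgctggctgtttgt

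The Spry1 window held 1 GGAA core and the Dusp6 window 6, and 93.4% of all 32851 promoter windows of this length held at least 1, with a median of 3. The T-box core GGTGTGA, read on both strands, was in none of the 6 windows of these 5 genes and in 3.33% of all windows. GGAA and GGTGTGA do not overlap as motifs. These matches describe letters in the windows and were not tested against binding.

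Of the other Sprouty genes, Spry2 showed no such difference, and Spry4 was too dim to judge. Spry2, which acts at the same step as Spry1, had 2 probe sets. The probe set 1436584_at read 8.29 and 7.74 in cKO against 8.14 and 7.95 in WT, and 1421656_at read 6.12 and 6.14 in cKO against 6.05 and 6.29 in WT. On both probe sets the genotypes overlapped, and the sign of the difference turned between the sets. Their mean differences were -0.03 (SE 0.24) and -0.04 (SE 0.17), with limma adjusted p of 0.968 and 0.943. On 1436584_at, Spry2 lay lower in set 2 than in set 1, by 0.56 in cKO and by 0.19 in WT, whereas 1421656_at did not share this direction.

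Spry4, another ERK-induced Sprouty gene, was dim. Its probe set 1422021_at read 4.71 and 4.31 in cKO against 4.51 and 4.59 in WT. The other, 1422020_at, read 3.95 and 3.79 in cKO against 3.95 on each WT array, so that 3 of 4 arrays gave an identical value. Both probe sets lay below the limit for dim probe sets on every array, and Spry4 was not tested between genotypes.

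Spred1 encodes a Sprouty-related protein that inhibits RAS through neurofibromin. It had 3 probe sets, all tested. On 1423160_at it read 9.85 and 9.81 in cKO against 9.40 and 9.63 in WT, and on 1423161_s_at 8.89 and 8.83 in cKO against 8.39 and 8.78 in WT. On these probe sets both cKO arrays lay above both WT arrays, by 0.31 (SE 0.17, limma adjusted p = 0.522) and 0.28 (SE 0.20, limma adjusted p = 0.596). Most of that lay in set 1, with differences of 0.44 and 0.50 there and of 0.17 and 0.05 in set 2.

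The dimmest Spred1 probe set, 1423162_s_at, showed another pattern. It read 6.81 and 7.54 in cKO against 6.82 and 7.22 in WT, so that the genotypes overlapped (difference 0.15, SE 0.30, limma adjusted p = 0.859). Set 2 lay above set 1 on it by 0.73 in cKO and by 0.40 in WT. The set difference of 0.57 had an unadjusted p of 0.0341 and a limma adjusted p of 0.999, and the other Spred1 probe sets gave set differences of 0.10 and 0.17.

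Dusp6 encodes a cytoplasmic phosphatase specific for ERK and is a widely used readout of FGF and ERK signalling. Its probe set read 13.15 and 13.25 in cKO against 13.10 and 12.89 in WT. Both cKO arrays lay above both WT arrays, by 0.05 in set 1 and 0.37 in set 2, and the WT set 2 array was the lowest. The mean difference of 0.21 (SE 0.17) did not pass limma's test (adjusted p = 0.647). Linear intensities ran from 7567 to 9753 over the 4 arrays. Between sets Dusp6 differed by -0.06, with opposite signs in the genotypes.

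The PEA3 factor gene Etv4 and the brighter probe set of Etv5 were nearly level across the arrays. Etv4 read 8.01 and 7.93 in cKO against 8.18 and 7.99 in WT, a difference of -0.12 (SE 0.17, limma adjusted p = 0.804), with overlapping genotypes. Etv5 on 1450082_s_at read 6.02 and 5.95 in cKO against 5.90 and 5.82 in WT, with both cKO arrays above both WT arrays by a small amount (0.12, SE 0.16, limma adjusted p = 0.777). Its dimmer probe set, 1420998_at, read 5.07 and 5.44 in cKO against 5.55 and 5.42 in WT, had a mean below the limit and was not tested.

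Across the 12 probe sets, 9 passed the limit for dim probe sets and were tested, and 0 of these 9 were called between genotypes by limma. The call rate over all 12531 tested probe sets was 0.0559%, or 7 calls. Leaving out cKO of set 1 or of set 2 gave 3 and 11 calls, and leaving out WT of set 1 or of set 2 gave 0 and 2 calls. With the set as a block 57 probe sets were called (0.455%), and again 0 of the 9. At an unadjusted p under 0.05 the count was 1 of 9, Spry1, beside 12% of all tested probe sets. Between sets limma called 0 of the 9 and 0% of all. The count at an unadjusted p under 0.05 was 1, the dimmest Spred1 probe set, beside 3.6% of all.

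In direction, 5 of the 12 probe sets were higher in cKO within both sets and 1, Etv4, was lower, beside 34.7% and 25.7% of all named probe sets. For 5 of the 12 both cKO arrays lay above both WT arrays, beside 25.7% of all. Spry1 was 1 of 12 at least 1.5-fold higher within both sets, beside 1.67% of all named probe sets. The median difference over the 12 was 0.05, and over all named probe sets it was 0.03.

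**Figure D2:**
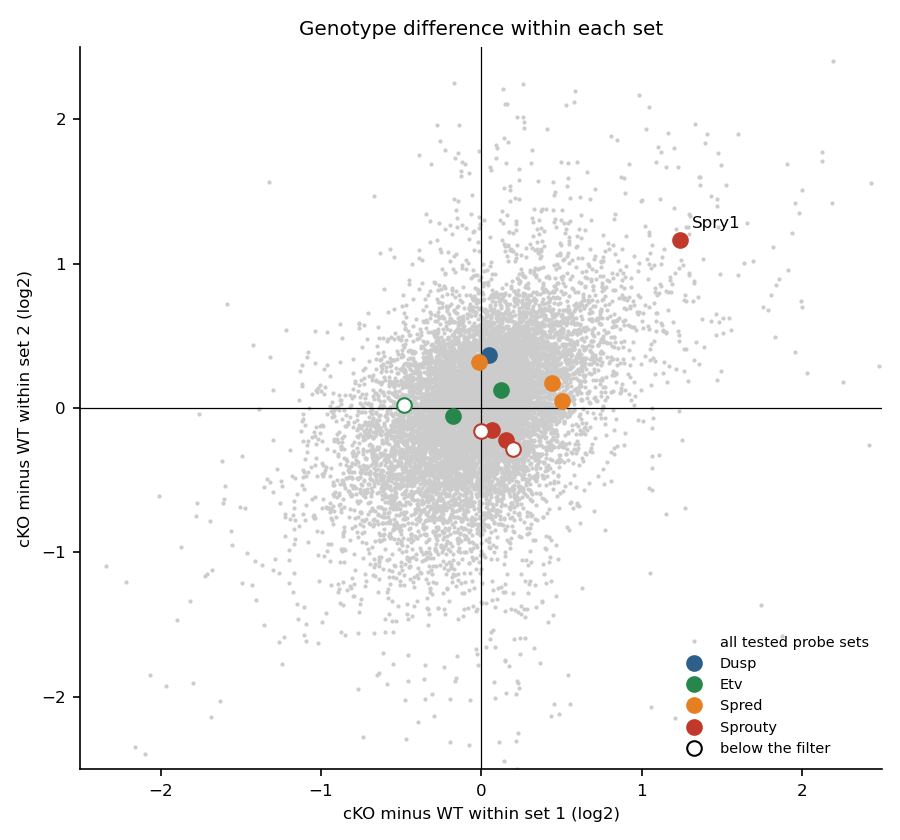
Difference between cKO and WT on the log2 scale within set 1 (horizontal) and within set 2 (vertical), with grey points for all 12531 tested probe sets, coloured points for the ERK feedback genes and open points for those below the limit; 44 tested probe sets lie beyond the axes, which end at 2.5. Spry1 lies at 1.24 and 1.16, and the other members lie between -0.48 and 0.50 on both axes.

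Over the 4 arrays, Spry1 was the only member whose highest probe set spanned at least 1 on the log2 scale. The genes of nearest profile, by Euclidean distance between log2 values centred on their own mean and among 8027 other genes, were Bst2, which encodes the membrane protein tetherin (distance 0.23), and Lgals3bp, which encodes a secreted galectin-binding protein (distance 0.24). Bst2 read 7.27 and 6.25 in cKO against 5.94 and 5.38 in WT. Lgals3bp read 6.95 and 5.79 in cKO against 5.46 and 4.86 in WT. The WT mean of Lgals3bp, 5.16, lay below the limit for dim probe sets. With 4 arrays, such likeness is a description of these samples.

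Further genes of these families and other feedback genes of the pathway were set beside the members, from a list of 14 and each by its highest probe set. Not all of the DUSP genes listed act mainly on ERK, as given below for Dusp10. Of the 9 above the limit, 6 were higher in cKO within both sets, 1 was lower and 2 turned between sets, and 0 were called by limma (3 at an unadjusted p under 0.05). Over all 8033 genes taken the same way, 35.8% were higher within both sets, 27.9% lower, and 12.9% had an unadjusted p under 0.05. The list's median difference was 0.27, beside 0.03 over those genes, with 0.12 in set 1 and 0.52 in set 2. Dusp1, a nuclear phosphatase of several MAP kinases and an immediate early gene, read 13.20 and 13.08 in cKO against 12.50 and 12.05 in WT (difference 0.87, limma adjusted p = 0.315). Errfi1, an inhibitor of the epidermal growth factor receptor, read 12.26 and 12.21 in cKO against 11.48 and 11.69 in WT (0.65, limma adjusted p = 0.327). In both genes the genotypes did not overlap.

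Dusp14 differed by 0.12 in set 1 and 1.30 in set 2, so that its mean of 0.71 (limma adjusted p = 0.433) lay mostly in set 2, where WT read 7.48 against 8.10 to 8.78 on the other arrays. Dusp10, a phosphatase that acts mainly on JNK and p38, went the other way, with 7.43 and 7.57 in cKO against 8.16 and 7.97 in WT (-0.56, limma adjusted p = 0.348). Dusp7, a cytoplasmic ERK phosphatase like Dusp6, differed by 0.14 in set 1 and 0.79 in set 2.

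Output genes of ERK outside the members gave a mixed picture. In this list and those below, each gene is again counted by its highest probe set. Of 15, all above the limit, 7 were higher in cKO within both sets, 2 lower and 6 mixed. There were 0 calls by limma (1 at an unadjusted p under 0.05). The median was 0.13, with -0.01 in set 1 and 0.31 in set 2. The shares over all genes were those just given, 35.8%, 27.9% and 12.9%. Myc, a growth-promoting transcription factor gene, read 10.70 and 10.62 in cKO against 9.90 and 9.52 in WT (difference 0.95, SE 0.19, limma adjusted p = 0.274). Ccnd1, which encodes cyclin D1 of the G1 phase, differed in the other direction on all of its 3 probe sets, by -0.45, -0.52 and -0.89. The probe set at -0.89, outside these counts, had a limma unadjusted p of 0.00893 and an adjusted p of 0.326. The receptor gene Epha2 differed by 0.51, with 0.15 in set 1 and 0.86 in set 2, where the WT array was the lowest. The stress-response gene Ier3 differed by 0.45. The immediate early genes Fos and Egr1 differed by 0.03 and 0.14, less than the SE of 0.18 for each.

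Upstream, most FGF ligand genes were dim: of 15 listed genes, the secreted FGF carrier gene Fgfbp1 among them, 11 lay below the limit. Of the other 4, 3 were higher in cKO within both sets, 0 lower and 1 mixed, with 0 calls by limma (1 at an unadjusted p under 0.05, Fgf1). Fgf1, a ligand that binds all FGF receptors, read 6.88 and 6.32 in cKO against 4.88 and 5.57 in WT. Its WT mean of 5.23 lay below the limit, so that this probe set was tested only through its cKO values, and its place in these counts follows in part from the limit. The dimmer Fgf1 probe set lay below the limit on every array, at 5.37 and 5.37 in cKO against 4.37 and 4.59 in WT. Fgfbp1 differed by 0.18 in set 1 and 1.43 in set 2, where the WT array was the lowest of the 4. Fgf22 differed by 0.07.

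Of 5 FGF receptor genes, each by its highest probe set, 4 were above the limit and 0 were called by limma (0 at an unadjusted p under 0.05). Of these 4, 3 were higher in cKO within both sets and 1 was lower, with a median of 0.30. Fgfr1 differed by 0.39 (its dimmer probe set by -0.01), with 0.67 in set 1, where the cKO array was the highest, and 0.11 in set 2. Fgfr3 differed by 0.35 and Fgfrl1, which lacks the kinase domain, by 0.25. Fgfr2, a main FGF receptor of keratinocytes, differed by -0.34. Its dimmer probe set, outside these counts, differed by -0.70 (limma unadjusted p = 0.0273, adjusted p = 0.379). Of 8 other receptor tyrosine kinase genes 4 were above the limit, with 2 higher in cKO within both sets, 1 lower and 1 mixed, a median of 0.22 and 0 calls by limma (0 at an unadjusted p under 0.05). Erbb3 differed by 0.34, Erbb2 by 0.29 and Igf1r by -0.26.

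Genes of the core from adaptors to ERK kinases had a median close to that of all genes. Of 22 listed genes 15 were analysed here. Of 14 above the limit, 5 were higher in cKO within both sets, 5 lower and 4 mixed, with a median of 0.04 and 0 calls by limma (0 at an unadjusted p under 0.05). Their differences ran from -0.34 for the ERK-activated kinase gene Rps6ka3 to 0.27 for the RAS activator gene Sos2. The RAS inhibitor gene Rasa1 differed by -0.24 and the scaffold gene Ksr1 by 0.22.

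**Figure D3:**
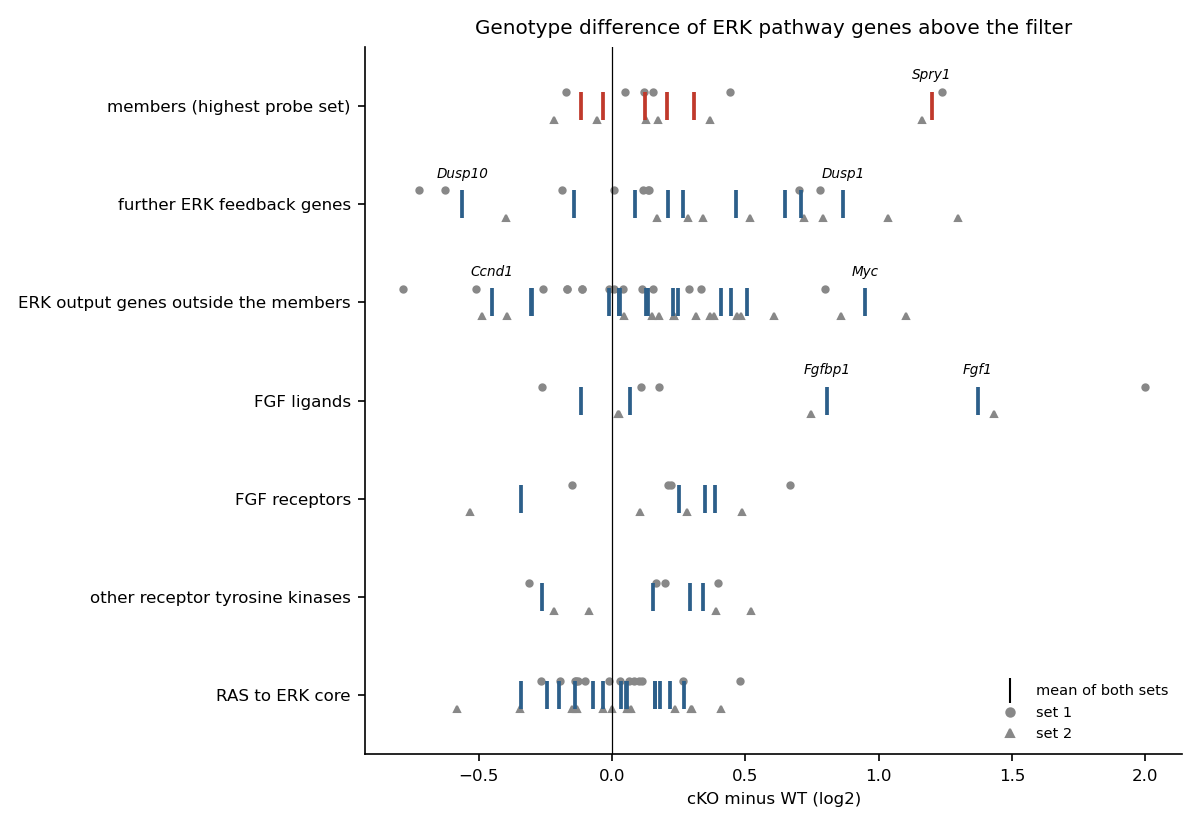
Difference between cKO and WT on the log2 scale for genes above the limit, each by its highest probe set, in the member genes (top row) and in 6 lists of the pathway, with circles for set 1, triangles for set 2 and vertical ticks for the mean of both. Spry1 lies at 1.20, Fgf1, dim in WT, at 1.37, Myc at 0.95 and Dusp1 at 0.87, and core genes from RAS to ERK lie between -0.34 and 0.27.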

How the data were processed

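Per the labels' protocols, 2 µg of total RNA per sample gave biotin-labelled cRNA for 1 Affymetrix array each. The values deposited by the authors are intensity on a linear scale for 22690 probe sets. The submitters' processing notes name RMA, without settings or a version. The values ran from 5.29 to 25561 and were turned to log2 without a pseudocount. Gene symbols came from GEO's platform annotation, and 20380 probe sets with 1 symbol were used. RMA gives no detection call, so dim probe sets were judged by level, and the number of arrays limits precision. An exact permutation test of 2 arrays against 2 cannot give a p below 0.333.

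Probe sets with a mean at or above percentile 40 (12531) were each tested with limma 3.58.1 in R 4.3.3 (lmFit, eBayes, all 4 arrays, no covariate, Benjamini-Hochberg adjustment, threshold 0.05), cKO against WT and set 2 against set 1. On simulated data, with noise drawn independently for each array, this method recovered 62.0% of log2 changes of 1 between genotypes and 32.9% between sets. Of log2 changes of 2 it recovered 99.3% and 97.8%. Its share of false calls was above the nominal threshold, more so with the set as a block. Both arrays of a set share a number and a labelled state, so the set pairs them. Within a set, deviations from the genotype means had a correlation of r = 0.25, and the block was an alternative. Other alternatives were 1 probe set per gene, other filters, a second quantile normalisation, median centring, a variance trend and leaving out each array. Named were Tbx1, all members, up to 4 genes per list with the largest mean difference of one sign in both sets, and the genes nearest in profile. Fos, Egr1, Dusp7, Fosl1, Malat1 and Neat1 were named after their values were seen. Members and lists were chosen with earlier results of these data known.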

Additional observations from a re-analysis of the deposited data

Results flagged for a closer look

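For 3 tested probe sets the sign of the difference between cKO and WT turned between the sets. For Spry2 the difference in set 2 minus that in set 1 was -0.37 on 1436584_at and -0.22 on 1421656_at, and for Spred1 it was 0.33 on 1423162_s_at. Each set holds 1 array of each genotype, so these differences were not tested.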

How the results depend on the processing

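No member was called under any of the alternatives run, in either comparison. limma's calls between genotypes over all probe sets numbered 7, against 57 with the set as a replicate block, 0 with the filter at percentile 60 and 11 with the variance trend and robust fitting. With each array left out they ran from 0 to 11. Between sets there were 0 calls, and 5 with the genotype as a block. The cause of these shifts was not tested. The block changed no call of Tbx1, the members, the genes named from the lists or those nearest in profile. Marker genes, Malat1 and Neat1 were not followed through the alternatives. On simulated data the block's share of false calls was above the threshold. Spry1 kept its direction in every alternative, from 0.74 to 1.66 with an array left out and from 1.19 to 1.20 under the other filters, scalings and fits, with limma adjusted p from 0.0556 to 0.999. Its set difference ran from -1.50 to -0.26 with an array left out. Changing the filter, normalisation, block, variance trend or probe sets per gene turned no direction, and leaving out an array turned some. In the comparison of cKO set 2 with WT set 1, added after seeing the data, Spry2 1421656_at also turned, to 0.087. With an array left out, differences between genotypes ran from -0.21 to 0.52 for Spred1 1423162_s_at, -0.16 to 0.078 for Spry2 1421656_at, -0.31 to 0.25 for Spry2 1436584_at, -0.59 to 0.11 for Rasa1, -0.091 to 0.14 for Fos (-0.072 without the cKO set 1 array) and -0.019 to 0.29 for Egr1. Between sets they ran from -0.24 to 0.12 for Dusp6, -0.12 to 0.32 for Spred1 1423160_at and -0.085 to 0.42 for Spred1 1423161_s_at. Signal near the lowest intensities limits what can be said of Spry4 and the dimmer Etv5 probe set.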

Other observations

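Outside the members, Rasa1, which encodes a GTPase-activating protein for RAS, differed between the sets on its highest probe set, 1426477_at. It read 9.61 and 9.96 in set 2 (cKO and WT) against 9.12 and 9.26 in set 1, a difference of 0.60 with an unadjusted p of 0.0322 and a limma adjusted p of 0.999. Its other probe sets differed by 0.28 and 0.86 in the same direction. Probe sets of Fosl1, an AP-1 gene induced by ERK, disagreed between genotypes, at 0.23 on the brighter and -0.16 on the dimmer.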
